A study of Homo sapiens and Mus musculus with 16 samples.

Results

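The genes described here are 40 human genes that drive or carry out the cell division cycle, chosen by name from a table of 22314 genes measured in the liver cancer cell line SK-HEP-1. They comprise 10 genes of G1 phase, 12 genes of DNA replication and 18 genes of mitosis. Cultures in DMEM with serum received DMSO alone (untreated, U) or an ethanol extract of the fruiting body of the mushroom Antrodia cinnamomea (AcFBE, treated, T) at 0.5 mg/ml, and poly(A) RNA was taken at 2 h or 4 h, which gives the libraries 2U, 2T, 4U and 4T. Each condition had 1 mRNA library and the table gives no read count behind a gene's value, so all ratios below are descriptions of these libraries, without a test or an error. The extract is a mixture, and all 4 libraries come from 1 established line. SK-HEP-1 is labelled as a liver line, yet 13 of 16 hepatocyte markers, ALB among them, were listed at 0 in all 4 libraries, and SERPINA1 was the only one of the 16 above 1 FPKM (fragments per kilobase of transcript, scaled to the number of mapped reads). Of 10 endothelial markers 8 were listed at 0 throughout, and only ENG exceeded 1 FPKM.

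Passage through the cell cycle is driven by cyclin-dependent kinases, which are active only when bound to a cyclin. D-type cyclins with CDK4 or CDK6, and then cyclin E with CDK2, release E2F transcription factors and open S phase, in which the MCM helicase is loaded by CDC6 and CDT1 and DNA is copied with PCNA as the sliding clamp. Genes of G2 and mitosis are switched on later, through promoters that hold a CHR element (cell cycle genes homology region) close to CCAAT boxes, and include cyclins A and B, their kinase CDK1, and the spindle checkpoint and chromosome genes. Dividing tumour lines express all of these groups, and the proportions shift with the share of cells in each phase.

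The promoters of the members were searched for the elements known for their phase, and a few are shown as examples of genes with and without these elements among those with higher, lower and overlapping levels in the treated libraries. Each is the 200 bases before a start of the gene, 5′ to 3′ on the gene's strand, from RefSeq promoters of build GRCh38.p14. CDK1, CDC25B and PCNA have 2, 4 and 2 windows, and the one with the most matches is shown, so their other starts may hold fewer. Capitals mark matches to the E2F motif (TTTCGCGC, TTTGGCGC, TTTCCCGC or TTTGCCGC), the CHR (TTTGAA or TTCGAA) and the CCAAT box (CCAAT), each searched on both strands. CDK1 (chr10:60778278-60778477, plus strand), CCNB2 (chr15:59104946-59105145, plus), CCNA2 (chr4:121823884-121824083, minus), TOP2A (chr17:40417897-40418096, minus), CDC25B (chr20:3796110-3796309, plus) and PLK1 (chr16:23678689-23678888, plus) are mitosis genes. PCNA (chr20:5126623-5126822, minus) and CDT1 (chr16:88803589-88803788, plus) are replication genes.
CDK1: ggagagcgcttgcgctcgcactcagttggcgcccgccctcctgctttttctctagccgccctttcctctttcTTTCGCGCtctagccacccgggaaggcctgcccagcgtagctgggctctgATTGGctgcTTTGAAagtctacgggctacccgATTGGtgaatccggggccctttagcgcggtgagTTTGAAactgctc
CCNB2: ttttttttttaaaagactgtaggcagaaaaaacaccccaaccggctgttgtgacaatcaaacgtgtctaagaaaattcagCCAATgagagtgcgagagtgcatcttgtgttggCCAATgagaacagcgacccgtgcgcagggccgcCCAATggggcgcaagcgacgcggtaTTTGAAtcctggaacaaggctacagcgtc
CCNA2: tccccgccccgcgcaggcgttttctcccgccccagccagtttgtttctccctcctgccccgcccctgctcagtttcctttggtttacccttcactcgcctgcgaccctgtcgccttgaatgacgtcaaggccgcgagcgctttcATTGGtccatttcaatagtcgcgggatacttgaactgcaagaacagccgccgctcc
TOP2A: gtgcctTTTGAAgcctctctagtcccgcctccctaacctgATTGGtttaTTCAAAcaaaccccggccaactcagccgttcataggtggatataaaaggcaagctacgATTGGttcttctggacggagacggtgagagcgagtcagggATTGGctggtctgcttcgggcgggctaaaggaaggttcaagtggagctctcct
CDC25B: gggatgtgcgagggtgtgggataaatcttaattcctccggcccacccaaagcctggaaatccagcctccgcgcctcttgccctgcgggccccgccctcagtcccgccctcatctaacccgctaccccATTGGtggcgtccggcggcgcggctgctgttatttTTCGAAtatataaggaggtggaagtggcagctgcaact
PLK1: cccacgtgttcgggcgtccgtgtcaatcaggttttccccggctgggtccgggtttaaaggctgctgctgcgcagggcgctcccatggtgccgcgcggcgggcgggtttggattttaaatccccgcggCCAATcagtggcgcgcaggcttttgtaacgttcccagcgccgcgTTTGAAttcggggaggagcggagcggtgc
PCNA: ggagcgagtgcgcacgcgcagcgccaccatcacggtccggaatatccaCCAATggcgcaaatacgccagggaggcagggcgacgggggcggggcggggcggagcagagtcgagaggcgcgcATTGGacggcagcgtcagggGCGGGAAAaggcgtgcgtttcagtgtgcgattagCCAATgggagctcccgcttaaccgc
CDT1: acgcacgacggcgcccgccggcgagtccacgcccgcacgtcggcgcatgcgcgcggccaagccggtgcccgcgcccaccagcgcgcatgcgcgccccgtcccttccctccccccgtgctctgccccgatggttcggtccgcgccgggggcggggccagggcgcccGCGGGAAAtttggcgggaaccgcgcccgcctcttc

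A CHR stood in at least 1 promoter window (250 bases before to 50 after the start) of 13 of the 16 mitosis genes with a window, of 2 of 10 replication genes and of 0 of 6 G1 genes, against 19.5% of the 27305 genes of the promoter table. The E2F motif had the opposite spread, with 8 of 10 replication genes, 2 of 6 G1 genes and 2 of 16 mitosis genes, against 3.99% of all genes. A CCAAT box was found in 15 of 16 mitosis genes, 7 of 10 replication genes and 3 of 6 G1 genes, against 39.7% of all genes, and CHR and CCAAT box together in 12 of 16 mitosis genes against 9.02%. Among the genes with a window and a mean of at least 1 FPKM these shares were 13.7% for the CHR, 7.20% for the E2F motif, 44.4% for the CCAAT box and 7.28% for CHR and CCAAT box. A match is a run of letters and not a shown binding site, and a CHR can overlap an E2F or CCAAT match. In CDK1 the CHR began 69 and 13 bases before the start shown and the E2F match 128 bases before it. CCNB2 and PLK1 both had their CHR 29 bases before the start. CCNA2 had a CCAAT box and none of the CHR letters searched. The mitosis genes with a CHR include CDC20, CDC25B, CDC25C and PLK1, which were not higher in the treated libraries at both times. CDC25B holds the TTCGAA form of the CHR, and CDT1 has an E2F match and neither of the other elements in the bases shown.

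Of the 40 genes, 34 had a mean of at least 1 FPKM over the 4 libraries (6 G1, 12 replication and 16 mitosis genes), as did 5445 of the 22314 genes of the table. Cyclin genes CCND2 and CCNE2 were listed at 0 in all 4 libraries. CDK6, CDC25A, BUB1B and CENPF had values above 0 in every library and a mean under 1 FPKM. MCM7 and TYMS were listed at 0 in both 2 h libraries. MCM7 had 333 FPKM in 4U and 320.2 in 4T, and TYMS 34.3 and 26.8. Such a pattern was shared by 38 of the 1294 genes with at least 20 FPKM in both 4 h libraries, and the reverse pattern by 0 genes, so no change with time is read from these 2 genes.

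The libraries listed 8454 (2T) to 10691 (2U) genes above 0. The 2 h libraries hold values between 0 and 0.2 FPKM (2656 in 2U and 1173 in 2T), whereas the 4 h libraries hold none, so the lowest values listed differ between the 2 times. Whether the 2 h columns were made in the same way as the 4 h columns is not given in the sources used here, and this bears on every 2 h ratio. Library 2U stood apart in the summed level of 12 housekeeping genes, with 27987 FPKM against 52775 to 58228 FPKM in the other libraries, mostly through GAPDH and RPLP0. Over all genes with a mean of at least 1 FPKM the median log2 ratio of treated to untreated was 0.032 at 2 h and -0.35 at 4 h. Dividing by each library's upper quartile moved the 4 h median to -0.084, and this shift turned the sign of the small 4 h ratios of CCND1, MCM7 and AURKB and centring that of the 2 h ratio of PLK1.

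**Figure D1:**
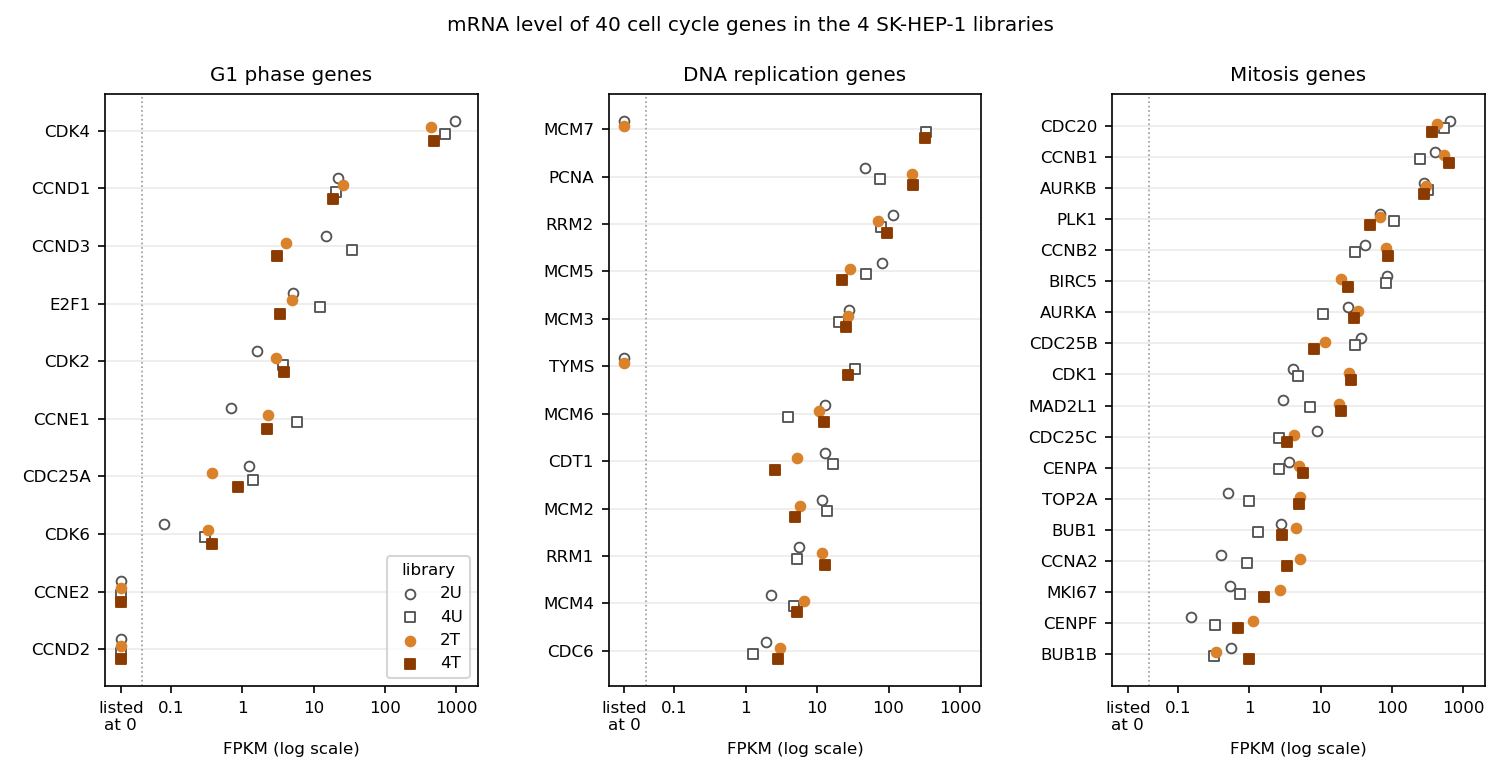
FPKM of the 40 genes in each library on a log scale, with open symbols for untreated and filled symbols for AcFBE libraries, circles for 2 h and squares for 4 h, 1 library per condition and values listed at 0 drawn left of the dotted line. The filled symbols of CDK1, TOP2A, PCNA and CCNA2 lie to the right of the open ones, those of CCND3, CDT1, CDC25B and BIRC5 to the left, and MCM7 and TYMS have values above 0 at 4 h only.

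The G1 genes had a lower median ratio than all genes at 4 h, while their 2 h median depended on the filter. Their median log2 ratio of treated to untreated was 0.085 at 2 h and -0.96 at 4 h over the 6 genes past the filter, and the 2 h median was -0.57 with a mean of at least 5 FPKM. At 2 h, 1 gene was at least 2-fold higher (22.6% of all genes were) and 2 were at least 2-fold lower (18.7% of all genes). At 4 h, 0 genes were at least 2-fold higher (16.4% of all genes) and 3 were at least 2-fold lower (27.7% of all genes). In RNA from whole cultures, fewer cells in a phase and less of an mRNA per cell cannot be told apart.

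Cyclin D3 (CCND3), a partner of CDK4 and CDK6, had the lowest 4 h ratio of the members. Its level was 15.0, 4.13, 34.9 and 3.06 FPKM in 2U, 2T, 4U and 4T, so that both treated libraries lay below both untreated ones. This was 3.64-fold lower at 2 h and 11.4-fold lower at 4 h, and the untreated libraries themselves differed 2.33-fold. Cyclin D1 (CCND1), which has the same partners, showed no such pattern, with 22.03, 25.6, 20.9 and 18.4 FPKM in 2U, 2T, 4U and 4T. All 4 of its values lay within a 1.39-fold range between the highest and the lowest.

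CDK4, the main D-cyclin kinase detected here, was the most abundant member by its mean over the 4 libraries, at 948, 444, 685 and 479.9 FPKM in 2U, 2T, 4U and 4T. Both treated values were below both untreated values, by 2.14-fold at 2 h and 1.43-fold at 4 h. CDK6, its close relative, had 0.0795 to 0.382 FPKM. In every library CDK4 exceeded CDK6 by 1255-fold or more per transcript length.

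CCNE1, the cyclin of CDK2, went in opposite directions at the 2 times. It had 0.692, 2.29, 5.78 and 2.19 FPKM in 2U, 2T, 4U and 4T. The treated libraries were alike (1.05-fold apart), whereas the untreated ones differed 8.35-fold, so the sign of its ratio followed the untreated library. CDK2 had 1.59, 2.94, 3.70 and 3.86 FPKM in that order, and its treated and untreated values overlapped. E2F1, the transcription factor released by the G1 kinases, stood at 5.165, 5.001, 12.3 and 3.435 FPKM. Its log2 ratio was -0.047 at 2 h and -1.84 at 4 h, the untreated level being 2.38-fold higher at 4 h than at 2 h. The CDK-activating phosphatase CDC25A had 1.24, 0.383, 1.40 and 0.883 FPKM in 2U, 2T, 4U and 4T, below the filter.

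The replication genes split. Their median log2 ratio was -0.17 at 2 h (10 genes) and 0.22 at 4 h (12 genes), with members from -1.50 to 2.18 at 2 h and from -2.68 to 1.69 at 4 h. PCNA, RRM1 and CDC6 were at least 1.5-fold higher at both times, and CDT1, MCM2 and MCM5 at least 1.5-fold lower. Of all genes, 14.7% were at least 1.5-fold higher and 20.1% at least 1.5-fold lower at both times, and the 2 h and 4 h pairs share no library.

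PCNA, the sliding clamp of the replicative polymerases, had the highest ratio of the replication genes averaged over both times. It had 47.5, 215, 75.7 and 217 FPKM in 2U, 2T, 4U and 4T. The treated values were 4.52-fold higher at 2 h and 2.86-fold higher at 4 h, and the 2 treated libraries lay within 1.01-fold of each other. PCNA has 3 pseudogene copies by name in the annotation, and how reads shared with them were placed is not given in the sources used here. In all, 13 members have such copies, and the same limit holds for them. CCND3, RRM2, CCNB2, MAD2L1, BUB1 and MKI67 are among the 13.

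The licensing factors CDC6 and CDT1, which load the MCM helicase together, moved apart. CDC6 had 1.91, 3.06, 1.27 and 2.85 FPKM in 2U, 2T, 4U and 4T, which is 1.60-fold higher at 2 h and 2.24-fold higher at 4 h. CDT1 had 13.0, 5.28, 16.6 and 2.59 FPKM, which is 2.47-fold lower at 2 h and 6.41-fold lower at 4 h. For both genes the treated values lay wholly on 1 side of the untreated values. Their transcripts differ in base composition, with 44.8% G or C for CDC6 and 64.3% for CDT1.

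The 6 subunits of the MCM2 to MCM7 helicase ring did not move as 1 unit. MCM2 had 11.6, 5.79, 13.6 and 4.84 FPKM in 2U, 2T, 4U and 4T, 2.00-fold lower at 2 h and 2.80-fold lower at 4 h. MCM5 had 82.2, 29.0, 47.6 and 22.2 FPKM, 2.84-fold and 2.14-fold lower. In these 2 subunits both treated values were under both untreated ones, and their ratios stayed below 0 at both times under every alternative tried. The size did not stay. Relative to genes of like GC content the 4 h log2 ratio went from -1.49 to -0.62 for MCM2 and from -1.10 to -0.31 for MCM5.

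MCM3 stayed between 19.98 and 28.2 FPKM in all 4 libraries, and its treated values lay inside the untreated range. MCM4 had 2.23, 6.45, 4.73 and 5.29 FPKM in 2U, 2T, 4U and 4T, so that the treated excess was 2.90-fold at 2 h and 1.12-fold at 4 h. MCM6 had 12.8, 10.5, 3.86 and 12.5 FPKM, and only its 4U value stood apart. MCM7, the most abundant replication gene by its mean, was 1.04-fold lower in 4T than in 4U, a sign that rescaling reversed. At 4 h MCM7 was 6.99-fold or more above every other subunit per transcript length in both libraries.

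Ribonucleotide reductase makes the deoxynucleotides for replication from a large subunit, RRM1, and a small subunit, RRM2. RRM1 had 5.63, 11.7, 5.24 and 12.7 FPKM in 2U, 2T, 4U and 4T, 2.08-fold and 2.43-fold higher with the extract. The 2 untreated libraries, and the 2 treated ones, each lay within 1.09-fold of each other. RRM2 was more abundant, at 114, 72.2, 78.1 and 95.2 FPKM, and its treated and untreated values overlapped. TYMS, thymidylate synthase, was 1.28-fold lower in 4T than in 4U, and its exons overlap those of ENOSF1 and TYMSOS on the opposite strand. Whether reads were counted by strand is not given in the sources used here, so TYMS reads cannot be told from those of its partners. In all, 12 members, TYMS among them, have exons that overlap another gene. The same limit holds where that gene lies on the opposite strand. Examples are CCND1 (with LTO1), CDK4 (with TSPAN31), CDK2 (with PMEL), RRM1 (with RRM1-AS1), CCNA2 (with EXOSC9) and PLK1 (with ERN2). For CCND2 and BUB1B an overlapping gene lies on the same strand, and counting by strand would not separate it.

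The mitosis genes had the highest ratios of the 3 groups, with a median log2 ratio of 0.45 at 2 h and 1.12 at 4 h over 16 genes. Their transcripts also had the lowest GC content of the 3 groups, and relative to genes of like GC content the medians were 0.36 at 2 h and 0.45 at 4 h. At 4 h 10 of the 16 were at least 2-fold higher and 3 at least 2-fold lower (16.4% and 27.7% of all genes), but relative to genes of like GC content 2 and 1 (9.36% and 10.4% of all genes). At 2 h 5 were at least 2-fold higher and 3 at least 2-fold lower (22.6% and 18.7% of all genes). At both times, 7 were at least 1.5-fold higher (CDK1, CCNA2, CCNB2, TOP2A, MAD2L1, BUB1 and MKI67, with 14.7% of all genes) and 2 at least 1.5-fold lower (CDC25B and BIRC5, with 20.1% of all genes). CCNA2, TOP2A and MKI67 passed the filter on low values through their treated libraries, so their presence in this count is partly fixed by the filter. Without the filter, 11 of 36 members were at least 1.5-fold higher at both times (12.7% of all genes) and 7 were at least 1.5-fold lower (16.5% of all genes).

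**Figure D2:**
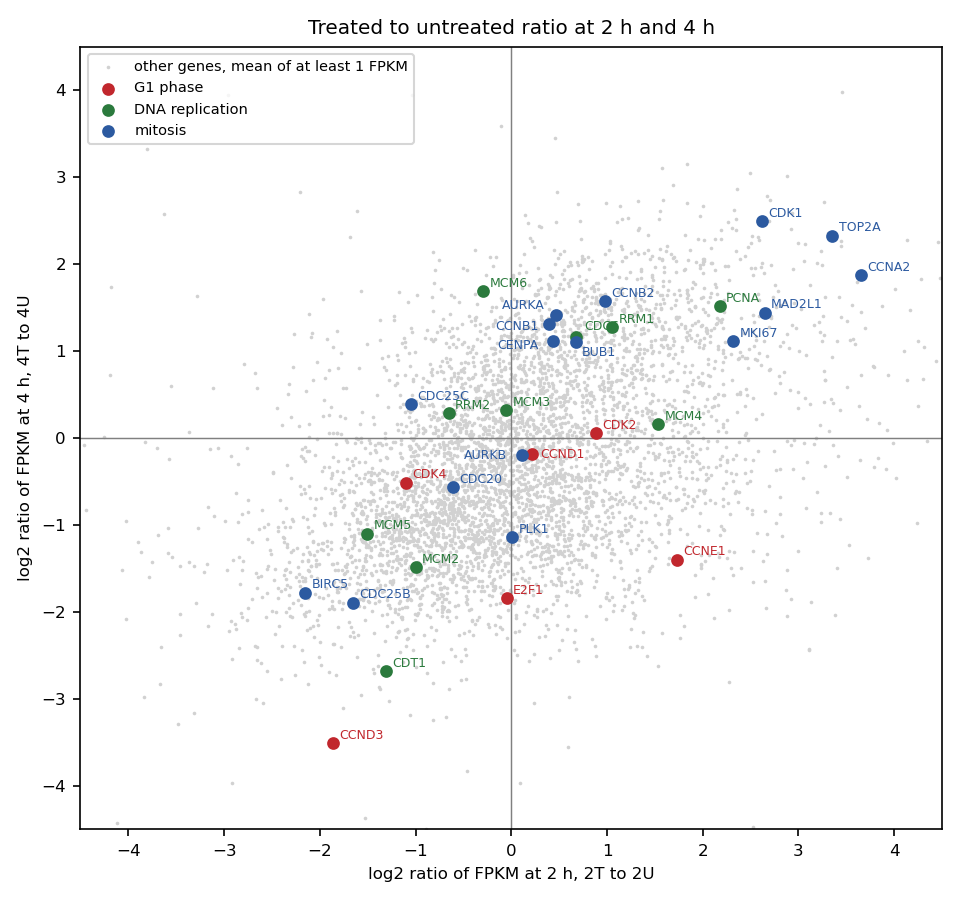
Log2 ratio of FPKM, treated to untreated, at 2 h (horizontal axis) and 4 h (vertical axis) for the 32 members past the filter with values in all libraries (coloured by group) and for the other genes past the filter (grey, those beyond the axes not drawn). CDK1, TOP2A and CCNA2 lie at the upper right with ratios of at least 1.88 on both axes, CCND3, CDT1, CDC25B and BIRC5 at the lower left, and CCNE1 and MCM6 in the corners of opposite sign.

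CDK1, the kinase that starts mitosis, had 4.04, 24.9, 4.78 and 27.0 FPKM in 2U, 2T, 4U and 4T. The treated libraries were 6.16-fold higher at 2 h and 5.65-fold higher at 4 h. The libraries of like treatment lay within 1.18-fold of each other, so the separation by treatment was far wider than that between the times. Its cyclin partners differed in size of change. Cyclin A2 (CCNA2) had 0.403, 5.09, 0.924 and 3.40 FPKM in 2U, 2T, 4U and 4T, 12.6-fold and 3.68-fold higher. Its 2U and 4U values lay under 1 FPKM, where ratios are imprecise, and its exons overlap EXOSC9 on the opposite strand. Cyclin B2 (CCNB2) had 42.0, 82.7, 29.8 and 89.1 FPKM, 1.97-fold and 2.99-fold higher.

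Cyclin B1 (CCNB1), the most abundant cyclin of the list, had 401, 528, 248.6 and 617 FPKM in 2U, 2T, 4U and 4T. Both treated values exceeded both untreated ones, by 1.32-fold at 2 h and 2.48-fold at 4 h. Relative to genes of like GC content its log2 ratio was -0.15 at 2 h, the opposite direction, and 0.31 at 4 h. Per transcript length its level was 99.1-fold that of its kinase CDK1 in 2U and 52.1-fold in 4U, and 21.2-fold in 2T and 22.9-fold in 4T.

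Of the CDC25 phosphatases, which remove the inhibitory phosphates from cyclin-dependent kinases, CDC25B was lower with the extract. It had 36.7, 11.7, 29.9 and 8.04 FPKM in 2U, 2T, 4U and 4T, 3.14-fold and 3.71-fold lower. CDC25C had 8.82, 4.28, 2.59 and 3.40 FPKM, and its treated values lay between the untreated ones. CDK1 and CCNB2 transcripts were higher in the libraries in which the transcript of CDC25B, an activator of CDK1, was lower. These transcripts differ in base composition, with 35.4% G or C for CDK1, 45.2% for CCNB2 and 59.1% for CDC25B. Relative to genes of like GC content the 4 h log2 ratio of CDC25B went from -1.89 to -0.87. A link between these levels was not tested.

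As deposited, the mitotic kinases gave no common direction. Aurora A (AURKA), which acts at the spindle poles, had 24.1, 33.3, 10.8 and 28.9 FPKM in 2U, 2T, 4U and 4T, 1.38-fold and 2.67-fold higher. Aurora B (AURKB), which acts at centromeres, stayed between 277 and 317 FPKM in all 4 libraries. Polo-like kinase PLK1 had 67.6, 68.2, 108 and 48.9 FPKM in 2U, 2T, 4U and 4T, with values 1.01-fold apart at 2 h and a 2.21-fold lower treated value at 4 h. Relative to genes of like GC content the log2 ratios at 2 h and 4 h were 0.064 and 0.73 for AURKA, 0.50 and 0.57 for AURKB, and 0.38 and -0.30 for PLK1. CDC20, which activates the anaphase-promoting complex and was the most abundant mitosis gene by its mean over the 4 libraries, had 646, 424, 542 and 366 FPKM, 1.52-fold and 1.48-fold lower. In both treated libraries CCNB1 exceeded it and also CDK4. Relative to genes of like GC content the 4 h log2 ratio of CDC20 turned from -0.57 to 0.27.

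BIRC5 (survivin), a subunit of the chromosomal passenger complex with AURKB and an inhibitor of apoptosis, had, as listed, the largest decrease of the mitosis genes averaged over both times, but this decrease is uncertain. It had 85.2, 19.2, 82.0 and 23.9 FPKM in 2U, 2T, 4U and 4T. The untreated libraries lay within 1.04-fold of each other and the treated within 1.25-fold, and the treated were 4.44-fold and 3.43-fold lower. EPR1, known as a transcript from the opposite strand of the survivin gene, went the other way, with 0.116, 56.7, 0.704 and 56.6 FPKM in the same libraries. The summed FPKM of BIRC5 and EPR1 was 85.3, 75.9, 82.7 and 80.5, with log2 ratios of -0.17 at 2 h and -0.038 at 4 h, so the treated sums were 1.12-fold and 1.03-fold lower. The annotation used lists no coding or lncRNA gene that overlaps the exons of BIRC5, so a stretch shared with EPR1 was not checked. Where they share sequence, reads of one cannot be told from reads of the other without strand. Whether reads moved between these entries was not tested. Each count of genes at least 1.5-fold or 2-fold lower that holds BIRC5 loses 1 gene if the sum is used.

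Of the spindle checkpoint genes, MAD2L1 had 2.93, 18.4, 7.02 and 19.1 FPKM in 2U, 2T, 4U and 4T, 6.27-fold and 2.72-fold higher. BUB1, a checkpoint kinase at kinetochores, had 2.82, 4.49, 1.33 and 2.87 FPKM, 1.60-fold and 2.16-fold higher. Its lower treated value exceeded the higher untreated one by little, 2.87 against 2.82 FPKM. BUB1B had 0.325 to 0.994 FPKM with no order by treatment.

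TOP2A, the topoisomerase that untangles chromosomes before they part, had 0.505, 5.16, 1.01 and 5.06 FPKM in 2U, 2T, 4U and 4T, 10.2-fold and 5.02-fold higher. MKI67, the gene of the proliferation marker Ki-67, had 0.539, 2.69, 0.749 and 1.62 FPKM, 4.99-fold and 2.17-fold higher. Centromere histone CENPA had 3.61, 4.90, 2.59 and 5.63 FPKM, and kinetochore protein CENPF 0.1515, 1.14, 0.335 and 0.692 FPKM. In all 4 of these genes both treated values lay above both untreated ones, as in 21.4% of all genes above 0 in all 4 libraries. TOP2A and MKI67 passed the filter through their treated libraries, and CENPF did not pass it. Relative to genes of like GC content the 4 h log2 ratio of CENPF went from 1.05 to -0.035.

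Across the 34 members past the filter, both treated values exceeded both untreated values in 14 (23.7% of all genes) and lay below both in 9 (33.4% of all genes), while in 11 they overlapped. The 11 include MCM7 and TYMS, whose values of 0 in both 2 h libraries leave no other outcome. The 14 include CCNA2, TOP2A and MKI67, which passed the filter through their treated libraries. Among genes above 0 in all 4 libraries, with no filter, the treated values were above in 16 of 36 members (21.4% of all such genes) and below in 10 (27.7%). The 14 were 10 mitosis and 4 replication genes, and the 9 were 3 genes of each group. The members' treated libraries were close to each other, with a median difference of 1.19-fold between 2T and 4T (1.27-fold over all genes). Between 2U and 4U it was 1.55-fold (1.56-fold over all genes), against 2.03-fold between 2U and 2T (1.74-fold over all genes) and 2.34-fold between 4U and 4T (1.85-fold over all genes). Comparisons of 4 h with 2 h use the same libraries as the treated to untreated ratios and are no separate evidence. The G1 genes were mostly higher in 4U than in 2U, with a median log2 ratio of 1.22 for 4U to 2U, against 0.15 over all genes, -0.30 for replication and -0.15 for mitosis genes.

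The members' ratios followed the base composition of their transcripts. Over the 34 genes at 4 h the log2 ratio fell with the GC content of the transcript (Pearson's r = -0.90, Spearman's rho = -0.91, across genes, which are no replicates and come from the same 2 libraries), and over 32 genes at 2 h r was -0.68. Over all genes with a GC value r was -0.65 at 4 h (n = 4645) and -0.24 at 2 h (n = 4501). All 10 members with a GC content above the median of all genes, 52.9%, had a lower level in 4T than in 4U, although centring the ratios on all genes turned the sign for MCM7 and AURKB. Of the 24 at or below it, 19 had a higher level in 4T. Genes outside the list followed the same trend. Of all 5392 genes with a 4 h ratio, 3277 were lower in 4T. Among those with a GC value the median 4 h log2 ratio ran from 1.04 in the fifth of lowest GC content to -1.16 in that of highest. The mitosis genes had the lowest median GC content, 45.8%, against 48.3% for replication genes, 51.9% for G1 genes and 52.9% for all genes.

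The contrast is visible in the coding sequence of the members chosen here. Shown are 90 bases from the middle of the longest coding exon of 3 members that were higher and 3 that were lower, in the sense direction of build GRCh37, with G and C in capitals. They had the 3 highest and 3 lowest mean ratios over both times among members past the filter that have a promoter window. The choice leaves out members nearer the middle of the GC range. BIRC5, with 51.2% G or C, had a lower mean ratio than CDC25B and is missing only because it has no promoter window. MKI67, with 48.3%, was higher. TOP2A (exon 21, chr17:38557173-38557262, minus strand), CCNA2 (exon 2, chr4:122743635-122743724, minus) and CDK1 (exon 5, chr10:62547858-62547947, plus) were higher. CCND3 (exon 2, chr6:41908171-41908260, minus), CDT1 (exon 1, chr16:88870309-88870398, plus) and CDC25B (exon 1, chr20:3777234-3777323, plus) were lower.
TOP2A: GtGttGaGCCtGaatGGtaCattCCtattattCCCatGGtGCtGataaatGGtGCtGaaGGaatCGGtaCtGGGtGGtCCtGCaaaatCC
CCNA2: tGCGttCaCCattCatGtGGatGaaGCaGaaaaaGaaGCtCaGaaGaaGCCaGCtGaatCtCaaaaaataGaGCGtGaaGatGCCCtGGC
CDK1: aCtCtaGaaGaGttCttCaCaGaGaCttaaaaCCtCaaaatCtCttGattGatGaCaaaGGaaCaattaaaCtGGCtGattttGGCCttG
CCND3: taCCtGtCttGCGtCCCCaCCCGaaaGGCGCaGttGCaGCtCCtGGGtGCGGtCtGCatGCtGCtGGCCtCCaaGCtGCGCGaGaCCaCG
CDT1: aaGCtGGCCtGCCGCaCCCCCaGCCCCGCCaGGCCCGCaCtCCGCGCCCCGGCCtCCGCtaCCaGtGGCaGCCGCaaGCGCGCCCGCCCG
CDC25B: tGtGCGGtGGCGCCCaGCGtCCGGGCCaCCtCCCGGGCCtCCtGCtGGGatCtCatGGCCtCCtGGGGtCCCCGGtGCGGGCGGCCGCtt

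The stretches of TOP2A, CCNA2 and CDK1 hold 42, 41 and 33 G or C among 90 bases, and those of CCND3, CDT1 and CDC25B hold 59, 73 and 69. Over whole transcripts the GC content was 38.9%, 41.9% and 35.4% for the first 3 genes and 60.0%, 64.3% and 59.1% for the others.

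**Figure D3:**
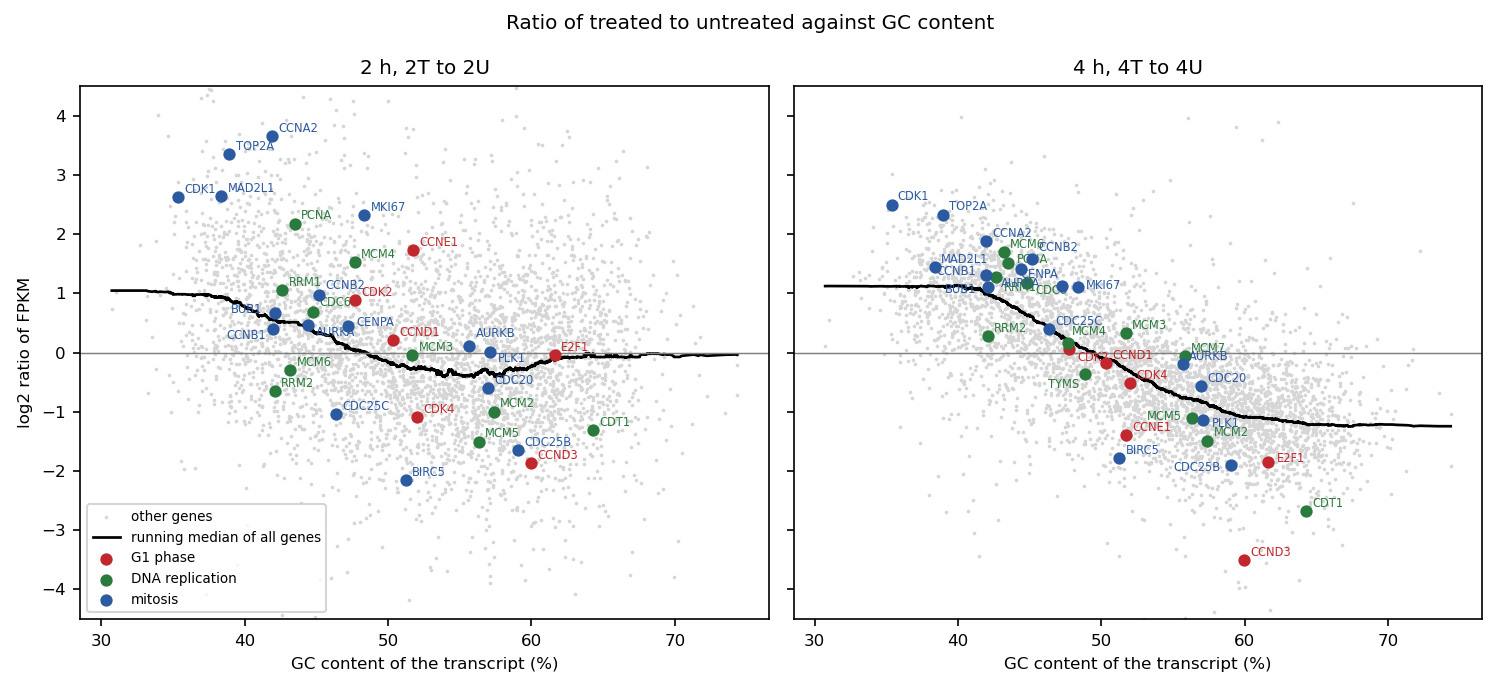
Log2 ratio of FPKM, treated to untreated, against GC content of the transcript at 2 h (left) and 4 h (right), with members coloured by group, other genes in grey (those beyond the axes not drawn) and the running median over 501 genes of like GC content as a black line. At 4 h the line runs from above 1 at low GC content to below -1 at high GC content, most members follow it, and CDK1, TOP2A and CCNA2 lie above it and CCND3, CDT1 and BIRC5 below it.

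Each ratio was therefore also given relative to the running median of genes of like GC content, an alternative chosen after the data were seen. At both times 6 members were then at least 1.5-fold higher (CDK1, CCNA2, CCNB2, TOP2A, MKI67 and PCNA, with 10.4% of all genes) and 6 at least 1.5-fold lower (CCND3, CDT1, CDC25B, BIRC5, MCM2 and RRM2, with 11.8% of all genes). CCNA2, TOP2A and MKI67 passed the filter through their treated libraries, so their place here is partly fixed by the filter. Without the filter, 6 of 36 members were higher (9.87% of all genes) and 6 lower (12.5% of all genes). BUB1, CDC6, MAD2L1 and RRM1 left the higher list and MCM5 the lower one, and RRM2 joined the lower one. At 4 h only 2 members remained at least 2-fold higher (CDK1 and TOP2A, with 9.36% of all genes) instead of 14, and 4 at least 2-fold lower (CCND3, CDT1, BIRC5 and CCNE1, with 10.4% of all genes) instead of 9. With no filter these adjusted 4 h counts were 2 and 4 of 38 members (9.68% and 13.1% of all genes). The adjusted 4 h median was 0.45 for mitosis, 0.17 for replication and -0.46 for G1 genes, with 0 for all genes by construction.

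Single genes kept different shares of their ratio. For CDK1 the 4 h log2 ratio was 2.50 as deposited and 1.38 after adjustment, and for MAD2L1 1.44 and 0.32. MKI67, with a GC content of 48.3% near the middle of the range, went from 1.11 to 0.99, and at 2 h from 2.32 to 2.31. BIRC5, at 51.2%, went from -1.78 to -1.57 at 4 h and from -2.15 to -1.92 at 2 h. The sign turned at 4 h for RRM2 (0.28 to -0.70), AURKB (-0.20 to 0.57), MCM7 (-0.057 to 0.71), CDK2 and MCM4 as well as CDC20, and at 2 h for E2F1 and MCM3 as well as CCNB1. CCND3 went from -3.51 to -2.42 and CDT1 from -2.68 to -1.47 at 4 h. Whether GC content moves with the ratios through the making of the libraries or with the cells cannot be told apart with 1 library per condition.

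**Figure D4:**
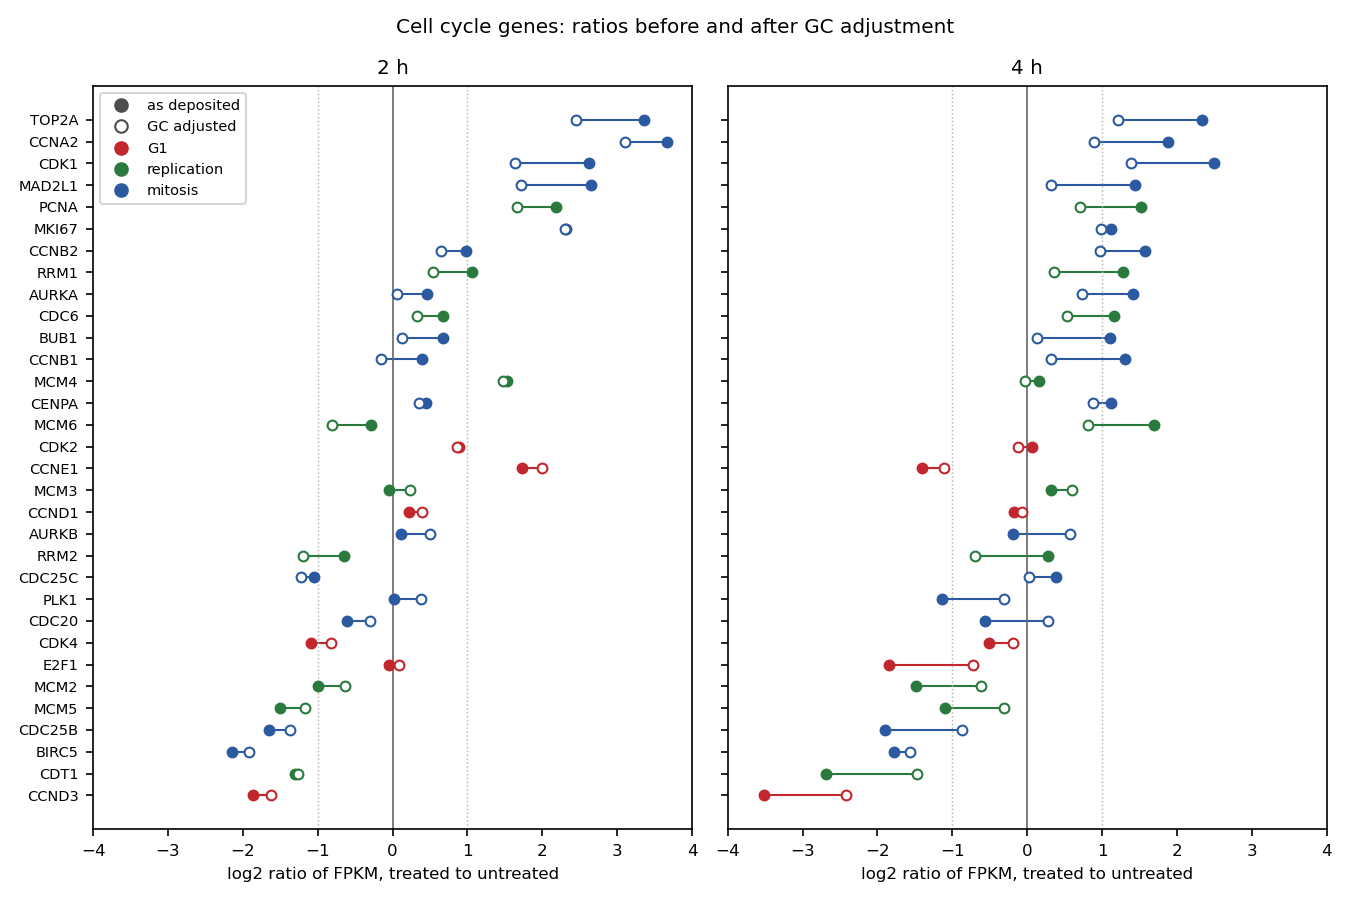
Log2 ratio of FPKM, treated to untreated, of the 32 members past the filter with values in all libraries, at 2 h (left) and 4 h (right), with filled circles as deposited and open circles relative to genes of like GC content, coloured by group and ordered by the mean ratio over both times, dotted lines marking 2-fold. Adjustment pulls most 4 h ratios toward 0, leaves CDK1 and TOP2A above 1 and CCND3, CDT1, BIRC5 and CCNE1 below -1, and moves the 2 h ratios less.

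Other genes of the same pathway were listed by role, and the shares of all genes past the filter to set beside their counts are 14.7% at least 1.5-fold higher and 20.1% at least 1.5-fold lower at both times. Of 20 cell cycle brakes (inhibitors of cyclin-dependent kinases and checkpoint genes) 7 passed the filter, 0 were at least 1.5-fold higher and 4 at least 1.5-fold lower at both times (CDKN1A, CDKN2C, GADD45A and GADD45B). CDKN1A, the p21 inhibitor that p53 induces, had 193, 20.9, 89.1 and 30.7 FPKM in 2U, 2T, 4U and 4T, 9.24-fold and 2.91-fold lower. GADD45B, a stress-induced growth arrest gene, had 47.0, 4.28, 21.2 and 5.22 FPKM, 11.0-fold and 4.06-fold lower. Its relative GADD45A had 41.1, 25.4, 64.1 and 23.5 FPKM. In all 3 both treated values were below both untreated ones, as in 33.4% of all genes past the filter. These 3 were named for having the lowest mean ratios of the list, so this order is partly fixed by the choice. GADD45A no longer met the limit at both times after GC adjustment. That adjustment took the 4 h log2 ratio from -1.54 to -0.69 for CDKN1A and from -2.02 to -1.15 for GADD45B.

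Among 16 transcription factors of the cycle, 5 had a ratio at both times, 0 were at least 1.5-fold higher and 2 were at least 1.5-fold lower. FOXM1, which activates mitosis genes, had 60.8, 18.5, 46.6 and 17.1 FPKM in 2U, 2T, 4U and 4T, 3.28-fold and 2.72-fold lower. MYBL2, a partner of the complex that binds CHR promoters, had 40.2, 17.8, 57.3 and 15.4 FPKM, 2.26-fold and 3.73-fold lower. These activators were lower in the same libraries as the mitosis genes CDC25B and CDC20, while CDK1, CCNB2 and TOP2A were higher there. After GC adjustment the log2 ratio of FOXM1 was -1.33 at 2 h and -0.68 at 4 h, and that of MYBL2 -0.95 and -0.81, so the decreases were smaller in size and at 4 h under 2-fold for both.

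Of 39 further replication genes 23 passed the filter, with 9 at least 1.5-fold higher (14.7% of all genes) and 4 at least 1.5-fold lower (20.1% of all genes) at both times. The highest mean ratios were those of the clamp loader subunits RFC5 (0.363, 2.535, 0.9105 and 2.64 FPKM in 2U, 2T, 4U and 4T) and RFC3 (0.34, 1.57, 0.657 and 1.58 FPKM) and of the primase PRIM1 (0.933, 3.45, 1.17 and 3.88 FPKM). RFC5 and RFC3 had untreated values under 1 FPKM and passed the filter through their treated libraries, so their place here is partly fixed by the filter. Thymidine kinase TK1 had 640.4, 341, 753 and 279 FPKM and was 1.88-fold and 2.70-fold lower. The polymerase subunits POLA2 (19.4, 8.31, 14.8 and 7.002 FPKM) and POLD2 (286, 154.5, 295 and 137 FPKM) were also lower at both times. As among the members, the genes of 1 process took both directions. After GC adjustment 6 were higher (10.4% of all genes) and 1, CHAF1B, was lower (11.8% of all genes) at both times, and RFC3, TK1, POLA2 and POLD2 no longer met the limit.

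Of 43 further mitosis genes 26 passed the filter, and of the 25 with a ratio at both times 10 were at least 1.5-fold higher (14.7% of all genes) and 3 at least 1.5-fold lower (20.1% of all genes). NUSAP1, a spindle microtubule protein, had 3.32, 13.3, 2.48 and 15.9 FPKM in 2U, 2T, 4U and 4T, 4.01-fold and 6.39-fold higher. The kinetochore genes NDC80 (0.208, 2.69, 0.739 and 1.77 FPKM) and SPC25 (0.677, 2.81, 2.13 and 6.29 FPKM) were higher from low untreated levels, and NDC80, under 1 FPKM in both untreated libraries, passed the filter through the treated ones. UBE2S, which extends ubiquitin chains for the anaphase-promoting complex, had 277, 26.8, 75.7 and 28.3 FPKM, 10.3-fold and 2.68-fold lower. CDCA5 had 41.1, 19.4, 40.7 and 16.9 FPKM and NCAPD2 2.19, 1.07, 1.79 and 1.13 FPKM, also lower. After GC adjustment NUSAP1 alone of these genes was at least 1.5-fold higher at both times and UBE2S alone at least 1.5-fold lower (10.4% and 11.8% of all genes).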

How the data were processed

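The authors made poly(A) cDNA by a protocol adapted from single-cell work, amplified it by PCR, sequenced it on SOLiD 3, kept reads of quality value 20 or more, mapped them to hg19 with up to 2 mismatches (Bowtie and Cufflinks in the study's methods, TopHat and Cufflinks in the submitters' processing notes) and deposited FPKM per gene. Tool versions and use of strand are not given in the sources used here. The table gives no read counts, and none per gene were estimated. For the 2 h libraries, but not the 4 h ones, the study's library statistics list another number of genes than the deposited columns hold, so the 2 h columns may be another version. The miRNA tables were not used here.

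Ratios are log2(treated/untreated) with no pseudocount, where both values exceed 0 and the mean of the 4 libraries is at least 1 FPKM. No test was made. Thresholds were 2-fold per time and 1.5-fold at both times. GC content was that of the canonical GENCODE 44 transcript on GRCh37, found for 85.6% of filtered genes and all 40 members. The GC-adjusted ratio subtracts a running median over 501 genes. Promoter windows were RefSeq's; AURKA, BIRC5, CCND1, CCND2, CCNE2, CDK2, MCM4 and MCM5 had none.

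All members are named; those at least 1.5-fold off in the same direction at both times, and the 3 most abundant of each group, are given in every library, as are up to 3 genes with the largest and the smallest mean ratio of each further list (same sign at both times). Members and lists were chosen with earlier results of these data known. Alternatives were other pseudocounts, filters, scalings, fold thresholds and promoter windows. Python 3.11.15, numpy 2.4.6, pandas 2.3.3, scipy 1.17.1 and matplotlib 3.10.9 were used, and the fold calls were tested on simulated data.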

Additional observations from a re-analysis of the deposited data

Results flagged for a closer look

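In 8 of 32 members with a mean of at least 1 FPKM the treated level was above the untreated one at one time and below it at the other, as in 34% of all genes past the same filter, and the difference between the times was not tested, since each condition had 1 library. The log2 ratio at 4 h minus that at 2 h was -3.13 for CCNE1, 1.99 for MCM6, 1.43 for CDC25C, -1.16 for PLK1, 0.94 for RRM2, -0.4 for CCND1, 0.37 for MCM3 and -0.31 for AURKB. BUB1B, with a mean under 1 FPKM, also changed direction, by 2.31. In CCNE1, MCM6 and CDC25C the untreated libraries differed 8.35-fold, 3.33-fold and 3.40-fold between the times, against 1.05-fold, 1.19-fold and 1.26-fold for the treated libraries. For PLK1 the 4U level was 1.60-fold that of 2U. For CCND1, MCM3 and AURKB all 4 values lay within a 1.39-fold, 1.41-fold and 1.14-fold range.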

How the results depend on the processing

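Of 143 recomputed group medians and counts, 137 stayed inside the range given by the members around the median or, for counts, within 1.5 times the value given. The 6 that moved were all counts. The range for medians is wide, and for the 6 G1 genes it ran from the lowest to the highest member (-1.86 to 1.73 at 2 h). A median can hardly leave such a range, so staying inside it does not show that a median is stable. Of the medians, that of the G1 genes at 2 h went from 0.085 to -0.57 with a mean of at least 5 FPKM and for 4T to 2T from -0.25 to 0.025 without a filter, and that of the replication genes for 4U to 2U from -0.30 to 0.062 or 0.063 with a pseudocount of 1 or 0.1 FPKM, which brings in MCM7 and TYMS. With a mean of at least 5 FPKM, 4 of 22 members instead of 9 of 32 were at least 2-fold higher at 2 h (20% of all genes), 8 of 24 instead of 14 of 34 at 4 h (17.3%), and 5 of 22 instead of 10 of 32 at least 1.5-fold higher at both times (14.8%), since low genes leave. With GC adjustment, chosen after the data were seen, 2 instead of 14 were at least 2-fold higher at 4 h, 4 instead of 9 at least 2-fold lower, and 6 instead of 10 at least 1.5-fold higher at both times; the cause was not tested. Of 670 recomputed ratios of named genes 606 stayed on the same side of the 2-fold limit and 64 crossed it, 37 of them under GC adjustment. With the FPKM of EPR1 added to BIRC5, also chosen after the data were seen, BIRC5 went from -2.15 to -0.17 at 2 h and from -1.78 to -0.038 at 4 h, and 6 instead of 7 members were at least 2-fold lower at 2 h, 8 instead of 9 at 4 h, and 5 instead of 6 at least 1.5-fold lower at both times. The largest row of a symbol was not run as an alternative, because no symbol had several rows. No paired analysis was possible because the mRNA groups, 1 library each, share no pair of replicate numbers; a fit of treatment with time as a block could have been made and was not. The table gives no read counts. The ratios of CCNA2, TOP2A and MKI67, and the 2 h ratio of CCNE1, rest on untreated values near or under 1 FPKM.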
